A study of Mus musculus with 6 samples.

Results

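Erythroid genes, which are active in developing red blood cells and whose RNA persists in young red cells (reticulocytes), were followed in lung RNA of male mice of the FVB strain (FVB/N in the methods), 6 days after birth (postnatal day 6). The 9 genes were Hba-a1, Hbb-b1, Alas2, Slc4a1, Rhag, Ermap, Hemgn, Klf1 and Kel. They were chosen as every row of the deposited array table that carried one of these symbols, which gave 12 of 25697 probes and 9 of 18138 gene symbols. Total RNA of the lung was hybridised to Illumina MouseRef-8 BeadChips, with 1 array for each of 3 hSRY-OFF and 3 hSRY-ON mice. In the design of the study, a single copy of a human SRY transgene, linked to EGFP, lies at the H11 locus behind the CAG promoter, which is active in most cell types, and is silent until Cre recombinase deletes a DsRed2 gene between them (hSRY-OFF before recombination, hSRY-ON after it). Cre came from the eggs of Ddx4-Cre mothers and acted in the single-cell embryo, and hSRY-ON pups chosen for array hybridisation lacked the Ddx4-Cre transgene themselves. Comparison mice are also called controls, a name given elsewhere to littermates with Ddx4-Cre alone or with neither transgene, so that the genotype of the hSRY-OFF mice rests on their label. The sources used here do not state whether blood was flushed from the lungs or how the pups were bled.

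As background, red cells of the newborn mouse arise mainly in liver, spleen and bone marrow, and reach the lung with the blood. An erythroid precursor fills with hemoglobin, which joins alpha and beta globin chains to heme made by a pathway that starts with Alas2, and builds a membrane around the anion exchanger Slc4a1, the Rh proteins and a spectrin skeleton. The factors Gata1 and Klf1 drive these genes, after which the nucleus is expelled and the remaining RNA decays, the globin RNAs being the most abundant in the young red cell.

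Promoter sequences were shown for the members that differed between the groups (Rhag, Kel), for an abundant one that did not (Alas2) and for the factor Klf1, because GATA factors bind erythroid promoters at words of this kind. RefSeq promoters (GRCm38.p6, 250 bases before to 50 after the start) were matched for 7 of the 9 genes, all but Hbb-b1 and Slc4a1. Each sequence below is the 100 bases directly before the start, read 5′ to 3′ on the strand of the gene, and capitals mark the GATA word AGATAA on either strand, where the first letter may also be T and the last also G. On the reverse strand the word ends in ATCA or ATCT.
Rhag, chr17:40811049-40811148, plus strand: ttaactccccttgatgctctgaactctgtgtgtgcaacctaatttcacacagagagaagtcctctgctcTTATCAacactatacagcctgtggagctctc
Kel, chr6:41704326-41704425, minus strand: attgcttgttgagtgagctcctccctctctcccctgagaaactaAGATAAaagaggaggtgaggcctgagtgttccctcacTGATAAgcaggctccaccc
Alas2, chrX:150547317-150547416, plus strand: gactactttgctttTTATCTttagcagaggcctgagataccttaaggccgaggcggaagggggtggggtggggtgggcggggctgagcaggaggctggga
Klf1, chr8:84901882-84901981, plus strand: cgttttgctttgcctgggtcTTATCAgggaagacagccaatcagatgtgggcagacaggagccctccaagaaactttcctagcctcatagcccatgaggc

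A GATA word lay within 100 bases before the start in 6 of the 7 promoters, against 10.4% of 32851 promoters of all genes. In the full windows it was found in 7 of 7, since Hba-a1 held TGATAA at position -183, against 29.8% of all promoters. The first base of the word lay at -31 in Rhag, at -56 and -19 in Kel, at -86 in Alas2, at -67 in Ermap, at -13 in Hemgn and at -80 in Klf1. The word CACACCC, a Klf1-type word, was found on either strand in 1 of the 7 windows, that of Klf1 itself, and in 7.95% of all promoters. A word match is a description of these letters only, and it was shared by members that differed between the groups and members that did not.

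The arrays were alike in brightness. Median intensity lay between 177 and 204, and 13191 to 14134 probes were detected (detection p under 0.05 against the negative control probes of the array). After quantile normalization the correlation between arrays across tested probes was 0.991 to 0.993 within hSRY-OFF, 0.972 to 0.980 within hSRY-ON and 0.935 to 0.959 between the groups, and no 2 arrays were identical. Of the 13841 probes tested with limma, 26.9% passed the threshold (adjusted p under 0.05) in one direction or the other, 13.6% higher and 13.3% lower in hSRY-ON. The median log2 change of all tested probes was -0.03. The surfactant gene Sftpc and the airway secretory gene Scgb1a1, which mark lung epithelium, were bright on every array, at normalized log2 levels of 13.91 to 14.34 and 14.80 to 15.03. Hba-a1 was the brightest probe on each of the 6 arrays. Levels are given below on the normalized log2 scale, in which a difference of 1 is a doubling, and changes are hSRY-ON minus hSRY-OFF.

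Of the globin and heme synthesis members, Hbb-b1 and Alas2 did not differ detectably between the groups, and Hba-a1 gave no test. The Hba-a1 probe (alpha globin, ILMN_1212702) had deposited intensities of 46236, 43102 and 46884 on hSRY-OFF arrays 1, 2 and 3 and of 46971, 45014 and 46955 on hSRY-ON arrays 1, 2 and 3. These overlapped, and the groups differed by 0.03 on the log2 scale before normalization. Quantile normalization gives the brightest probe the same value on every array (15.48), so that its change of 0 is fixed by the method and is no test. In whole-tissue RNA, here and below, fewer red cells and less RNA per red cell cannot be told apart.

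Beta globin was read by Hbb-b1 (ILMN_1235372), whose levels were 8.82, 8.26 and 8.40 in hSRY-OFF and 9.11, 7.92 and 8.08 in hSRY-ON. The highest and the lowest array were both hSRY-ON, and the change was -0.12 (SE 0.32, 95% interval -0.89 to 0.64, limma adjusted p = 0.802). Left out in turn, hSRY-OFF 1, hSRY-ON 2 and hSRY-ON 3 each turned its sign (0.043, 0.099 and 0.023). Alas2 (ILMN_2675874), the enzyme that starts heme synthesis in erythroid cells, stood at 13.94, 13.17 and 13.43 in hSRY-OFF and 13.73, 13.44 and 12.95 in hSRY-ON. The groups overlapped, with a change of -0.14 (SE 0.26, interval -0.76 to 0.48, adjusted p = 0.723), and the sign turned without hSRY-OFF 1 or hSRY-ON 3 (0.074 and 0.075). Alpha and beta globin each have a near-identical second copy (Hba-a2, Hbb-b2), and the share of each copy in a probe's signal is not known here. The Hbb-b1 probe was dim for a globin, with deposited intensities of 354 to 631. How much of the beta globin RNA it reads is not known either.

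**Figure D1:**
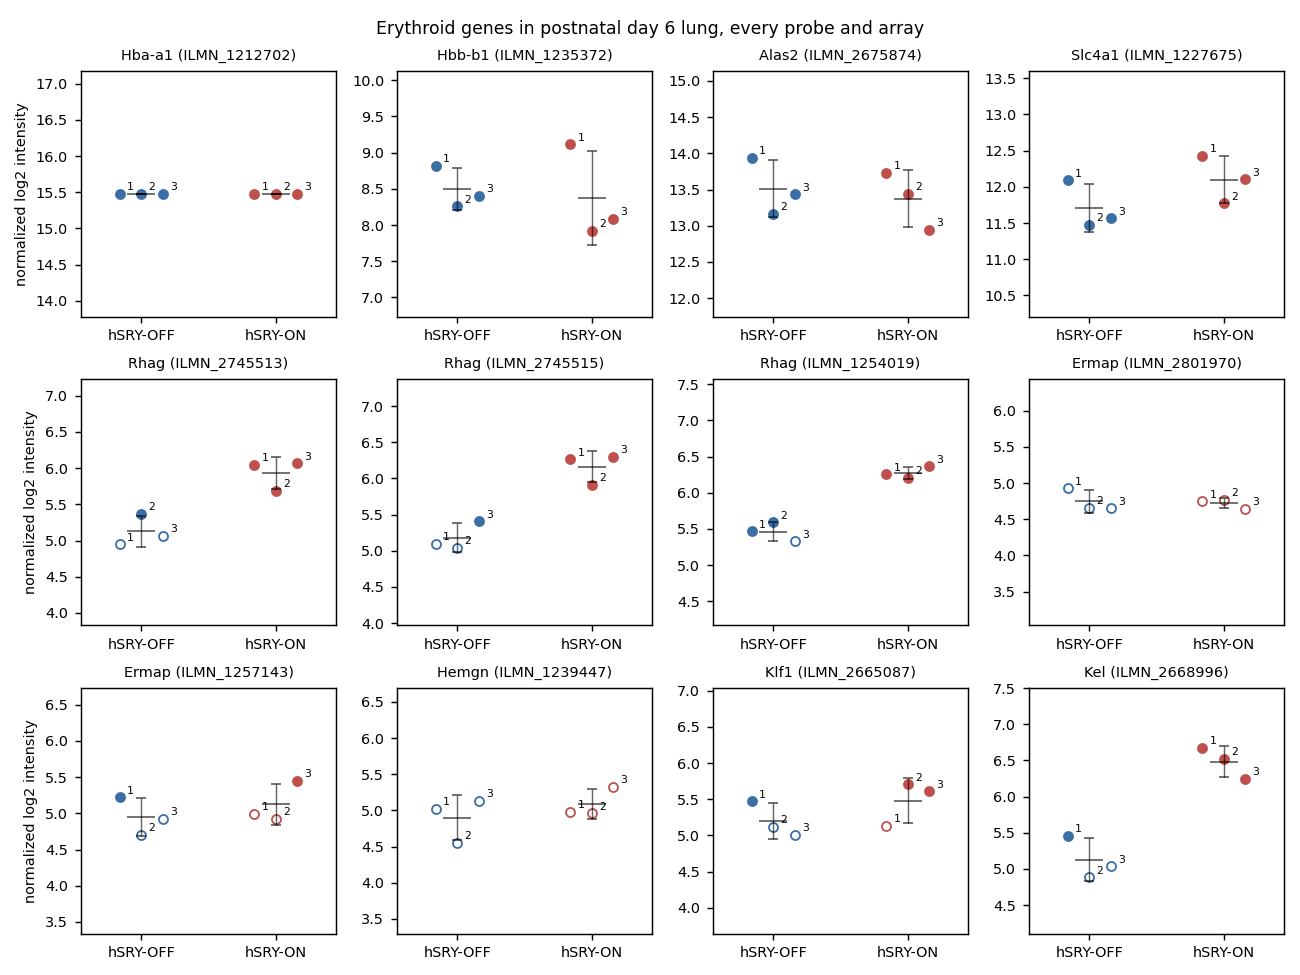
Normalized log2 intensity of each of the 12 probes of the 9 erythroid genes on the 3 hSRY-OFF (blue) and 3 hSRY-ON (red) arrays, with the array number beside each point. Filled points were detected, open points were not, and bars show the mean and SD of 3 arrays. The groups overlap for Hbb-b1, Alas2 and Slc4a1 and are apart for the Rhag probes and Kel.

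Slc4a1 (ILMN_1227675), the anion exchanger that is the main protein of the red cell membrane, was measured at 12.09, 11.48 and 11.56 in hSRY-OFF and 12.43, 11.77 and 12.10 in hSRY-ON. The hSRY-ON arrays tended to be higher, but hSRY-OFF 1 lay above hSRY-ON 2. Its change was 0.39 (SE 0.23, interval -0.15 to 0.92, adjusted p = 0.240).

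Rhag, an ammonia and gas channel that holds the Rh complex in the membrane, rose on each of its 3 probes. The first probe (ILMN_2745513) gave 4.95, 5.37 and 5.06 in hSRY-OFF and 6.05, 5.68 and 6.07 in hSRY-ON, a change of 0.81 (SE 0.17, adjusted p = 0.0142). The second (ILMN_2745515) gave 5.10, 5.04 and 5.41 against 6.27, 5.92 and 6.30, a change of 0.98 (SE 0.16, adjusted p = 0.00697). The third (ILMN_1254019) gave 5.47, 5.59 and 5.33 against 6.25, 6.21 and 6.37, a change of 0.81 (SE 0.12, adjusted p = 0.00515). Every hSRY-ON value lay above every hSRY-OFF value on all 3 probes, as for 22.4% of all tested probes (46.6% did not overlap in one direction or the other). The probes read the same RNA in the same mice and are not independent replicates.

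Kel (ILMN_2668996), the endothelin-processing protease that carries the Kell blood group, also rose. Its levels were 5.46, 4.89 and 5.04 in hSRY-OFF and 6.67, 6.53 and 6.25 in hSRY-ON, a change of 1.35 (SE 0.19, interval 0.91 to 1.80, adjusted p = 0.00403). The groups did not overlap.

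These dim probes sat at the detection limit in hSRY-OFF. The 3 Rhag probes were detected on 1, 1 and 2 of the 3 hSRY-OFF arrays and Kel on 1, whereas all were detected on the 3 hSRY-ON arrays, so that they passed the detection filter through the group in which they were high. Entry in this way favours probes that differ, and the 4 calls among the 9 tested member probes were therefore not read against the 13.6% of all tested probes called higher. As deposited, Kel had intensities of 181, 156 and 183 in hSRY-OFF and 232, 216 and 219 in hSRY-ON, a log2 difference of 0.36, and the Rhag probes differed by 0.19, 0.24 and 0.20. Without background correction the changes were 0.23 to 0.28 for Rhag and 0.42 for Kel, and the first Rhag probe was no longer called (adjusted p = 0.0613). It also lost its call without hSRY-OFF 1 (0.71, adjusted p = 0.0633) or hSRY-OFF 3 (0.77, adjusted p = 0.0530), and on the deposited scale hSRY-OFF 3 (184) lay above hSRY-ON 2 (181). With one scaling factor per array and no background correction, the third Rhag probe lost its call too (adjusted p = 0.0683). The second Rhag probe and Kel stayed under the threshold in all alternatives in which they were tested, and with no detection filter, where entry does not depend on the group, all 4 remained called (adjusted p = 0.0191, 0.00911 and 0.00512 for Rhag and 0.00556 for Kel).

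**Figure D2:**
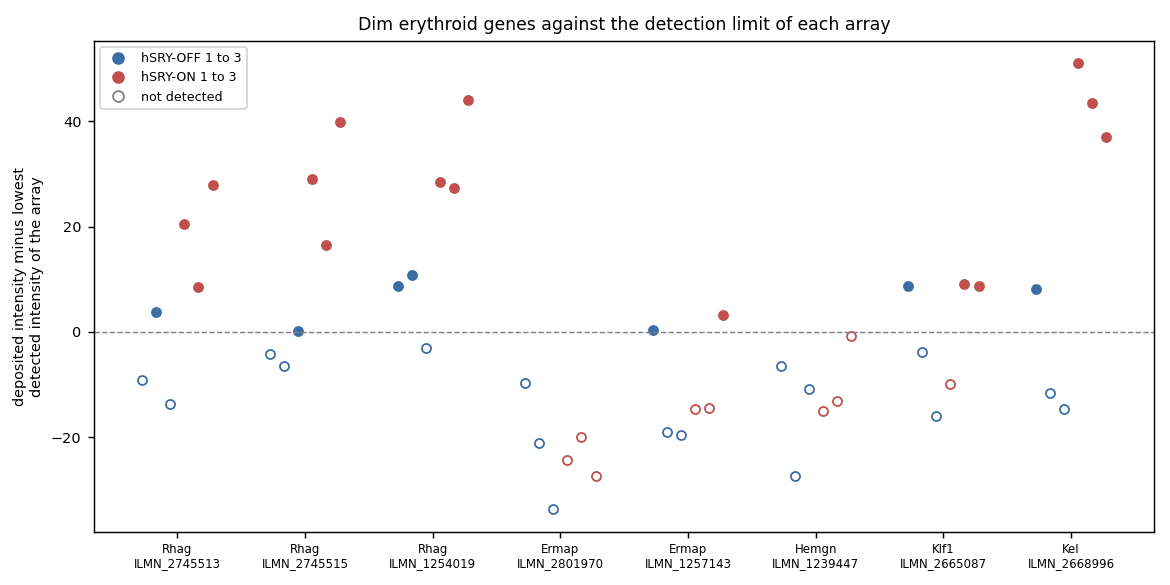
Deposited intensity of the dim erythroid probes minus the lowest intensity detected on the same array (vertical axis, intensity units), for the 3 hSRY-OFF (blue) and 3 hSRY-ON (red) arrays, left to right in array number. Open points were not detected. Rhag and Kel lie above the limit on each hSRY-ON array, while Ermap, Hemgn and Klf1 are spread around or under it in both groups.

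Ermap, a membrane protein of erythroid cells that carries the Scianna blood group, was not measurable. One probe (ILMN_2801970) was detected on no array, with levels of 4.93, 4.66 and 4.65 in hSRY-OFF and 4.75, 4.77 and 4.65 in hSRY-ON. The other (ILMN_1257143) was detected on 1 array of each group, with 5.22, 4.70 and 4.92 against 4.99, 4.93 and 5.45. Neither was tested, and their difference without the detection filter was -0.02 and 0.17 (adjusted p = 0.933 and 0.659).

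The nuclear members were dim as well. Klf1 (ILMN_2665087), the factor that activates adult globin and membrane genes, was detected on 1 array of hSRY-OFF and 2 of hSRY-ON, with 5.47, 5.12 and 5.01 in hSRY-OFF and 5.13, 5.71 and 5.61 in hSRY-ON. The groups overlapped (change 0.28, SE 0.20, interval -0.19 to 0.75, adjusted p = 0.324). Hemgn (ILMN_1239447), a nuclear protein of blood precursors, was detected on no array, with 5.02, 4.55 and 5.13 against 4.98, 4.96 and 5.33. It was not tested, and without the filter its difference was 0.19 (adjusted p = 0.611).

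Among the 9 tested probes, 4 were called higher and 0 lower. Of all tested probes, 13.6% were called higher and 13.3% lower. The 4 calls were those of the Rhag probes and Kel, which passed the detection filter through hSRY-ON. Their count was therefore not read against these shares. The 7 genes of the tested probes divided into Rhag and Kel, which rose, Hbb-b1, Alas2, Slc4a1 and Klf1, for which no difference was found, and Hba-a1, whose normalized value is fixed. The intervals of Hbb-b1 and Alas2 were wide and reach past 0.4 log2 units on either side. With 3 arrays a side, an exact permutation test of a single gene cannot go below p = 0.1, so that none was used.

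For Hbb-b1, Alas2 and Slc4a1 the range within each group exceeded the change between the groups. In both groups the array numbered 1 was the high one for beta globin, Alas2 and Slc4a1. The ferrochelatase gene Fech, which puts iron into heme, followed on both of its tested probes (9.27, 8.43 and 8.35 in hSRY-OFF and 9.35, 8.22 and 7.89 in hSRY-ON on the first, 9.07, 8.44 and 8.26 against 8.83, 7.81 and 7.95 on the second). Of 41 erythroid probes that were detected on all arrays and not called, Hba-a1 apart, hSRY-OFF 1 was the highest of its group for 25 (61.0%, against 32.9% of all tested probes). hSRY-ON 1 was the highest of its group for 18 (43.9%, against 31.7%), and both held for 16 (39%, against 9.36%). Arrays with the same number are different mice, and the probes share the RNA of a mouse, so these shares are a description of 6 mice. This count was chosen after the values were seen, and the 41 probes include those named above. The shares of all tested probes were not limited to probes detected on all arrays and not called, so the sets are unlike.

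**Figure D3:**
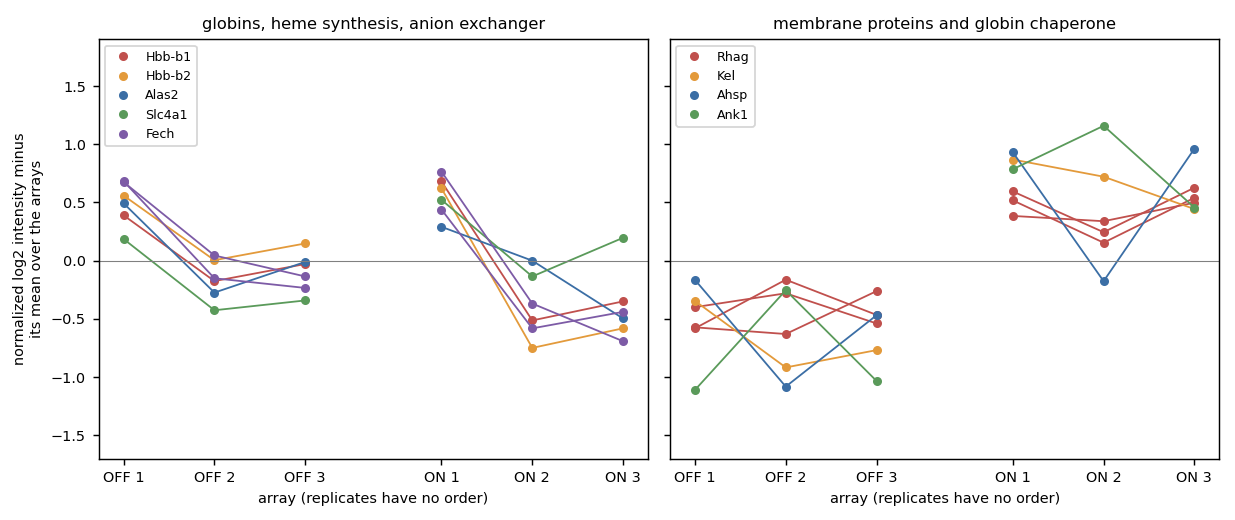
Normalized log2 intensity of single erythroid probes minus the mean of the probe over the 6 arrays, by array (lines only join the points of a probe, since replicates have no order). Left, beta globins, Alas2, Slc4a1 and Fech, each of which is highest on array 1 of either group. Right, Rhag, Kel, Ahsp and Ank1, which are higher in hSRY-ON on most arrays.

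The rest of the red cell program was read from 65 further genes in lists by role, of which 62 were on the array. Of 56 tested probes for 45 of these genes, 7 were called higher and 6 lower (23.2%, against 26.9% of all tested probes), with a median change of 0.05. Their summed level, which adds normalized intensities without the offset over all probes of the lists, was 79998 to 95125 in hSRY-OFF and 78979 to 96532 in hSRY-ON.

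In the list of globins and the globin chaperone, neither of the 2 tested probes was called (median 0.34). Hbb-b2, the second adult beta globin, changed by -0.47 (SE 0.36, adjusted p = 0.363) and was called only without hSRY-ON 1 (-0.90, adjusted p = 0.0171). Ahsp, the chaperone that keeps free alpha globin soluble and which the array lists as Eraf, stood at 11.98, 11.06 and 11.67 in hSRY-OFF and 13.07, 11.97 and 13.10 in hSRY-ON. hSRY-OFF 1 lay just above hSRY-ON 2, and the change of 1.14 (SE 0.36) missed the threshold (adjusted p = 0.0544). Ahsp passed it without hSRY-ON 2 (1.51, adjusted p = 0.0196) and under several other settings, such as one scaling factor per array (1.25, adjusted p = 0.0284). In 10 of 19 alternatives it was not called. These included leaving out any other single array, with adjusted p up to 0.163 (0.89, without hSRY-OFF 2).

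Of 10 tested heme synthesis probes 1 rose and 2 fell (30%, near the 26.9% of all tested probes, median -0.12). Alas1, the housekeeping counterpart of Alas2 that all cells use, rose by 0.72 (adjusted p = 0.0345), and both Uros probes, an enzyme in the middle of the pathway, fell by 0.62 and 0.83 (adjusted p = 0.0430 and 0.0247). Each of these 3 calls was lost when any one of 4 or 5 arrays was left out, with adjusted p up to 0.119 for Alas1 and 0.133 and 0.0938 for Uros. The erythroid enzymes of the pathway thus gave no common direction.

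Of 11 tested probes for membrane and skeleton genes, 2 rose and 1 fell (27.3%, near the 26.9% of all tested probes, median 0.36). Ank1, the ankyrin that ties Slc4a1 to spectrin, gave 5.20, 6.05 and 5.27 in hSRY-OFF and 7.09, 7.46 and 6.76 in hSRY-ON (change 1.60, SE 0.27, adjusted p = 0.00789), and like Kel it was detected on 1 hSRY-OFF array against 3 hSRY-ON arrays, so that it also entered the test through hSRY-ON. The other Ank1 probe (ILMN_2609011) was detected on no array and was not tested. Tspan33, a tetraspanin of erythroid precursors and other cells, gave 7.0, 6.83 and 6.42 against 8.50, 7.92 and 7.81 (change 1.33, SE 0.23, adjusted p = 0.00806), and was detected on all arrays. Gypc, a glycophorin that many cell types also express, fell by 1.04 (SE 0.19, adjusted p = 0.00904). Add2, Cldn13, Epb42 and Rhd were detected on no array.

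Of 7 probes for red cell enzymes, 2 rose and 1 fell (42.9%, against 26.9% of all tested probes, median 0.21). Car2, a carbonic anhydrase of red cells and many other cells, fell by 1.63 (SE 0.18, adjusted p = 0.00189). Blvrb, the reductase of biliverdin and flavins, rose by 0.68 (adjusted p = 0.0255), and Hagh, a glyoxalase, by 0.44 (adjusted p = 0.0422). Car2 kept its call without each array in turn, whereas Blvrb lost it without any hSRY-OFF array or hSRY-ON 3 (adjusted p up to 0.0886) and Hagh without any array but hSRY-ON 3 (up to 0.133).

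Of 8 tested probes for erythroid transcription factors, 0 rose and 2 fell (25%, near the 26.9% of all tested probes, median -0.27). Lmo2, a bridging factor of the Gata1 and Tal1 complex that endothelial cells also use, fell by 1.04 (SE 0.19, adjusted p = 0.00941). Bcl11a, a repressor of fetal-type globins that is also active in B cells, was detected on every hSRY-OFF array and no hSRY-ON array, so that it entered the test through hSRY-OFF, and its level in hSRY-ON was at least 1.42-fold lower (adjusted p = 0.00308). Such bounds set the mean level of the detected arrays against a floor for the undetected ones, which on each array is the lowest detected level or, if larger, the level of the probe. Gata1, Gfi1b and Sox6 were detected on no array.

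Of 8 tested probes for erythropoietin signalling and iron uptake 1 rose (12.5%, near the 13.6% of all tested probes), that of the mitochondrial porphyrin transporter Abcb6 (0.51, adjusted p = 0.0251, up to 0.103 without one of hSRY-OFF 1, 2, 3 or hSRY-ON 2), and 0 fell (median 0.21). The transferrin receptor Tfrc, which precursors use to take up iron, changed by -0.25 (adjusted p = 0.165) on the probe with the smaller p. Of 10 tested probes for genes listed here under reticulocyte maturation, 1 rose and 0 fell (10%, against 26.9% of all tested probes, median 0.15). This was Fhdc1, a formin-like protein, which rose by 1.59 (SE 0.14, adjusted p = 0.00104), from 8.89, 8.92 and 8.86 to 10.50, 10.69 and 10.26. Whether the Fhdc1 signal came from red cells or from other lung cells was not tested.

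**Figure D4:**
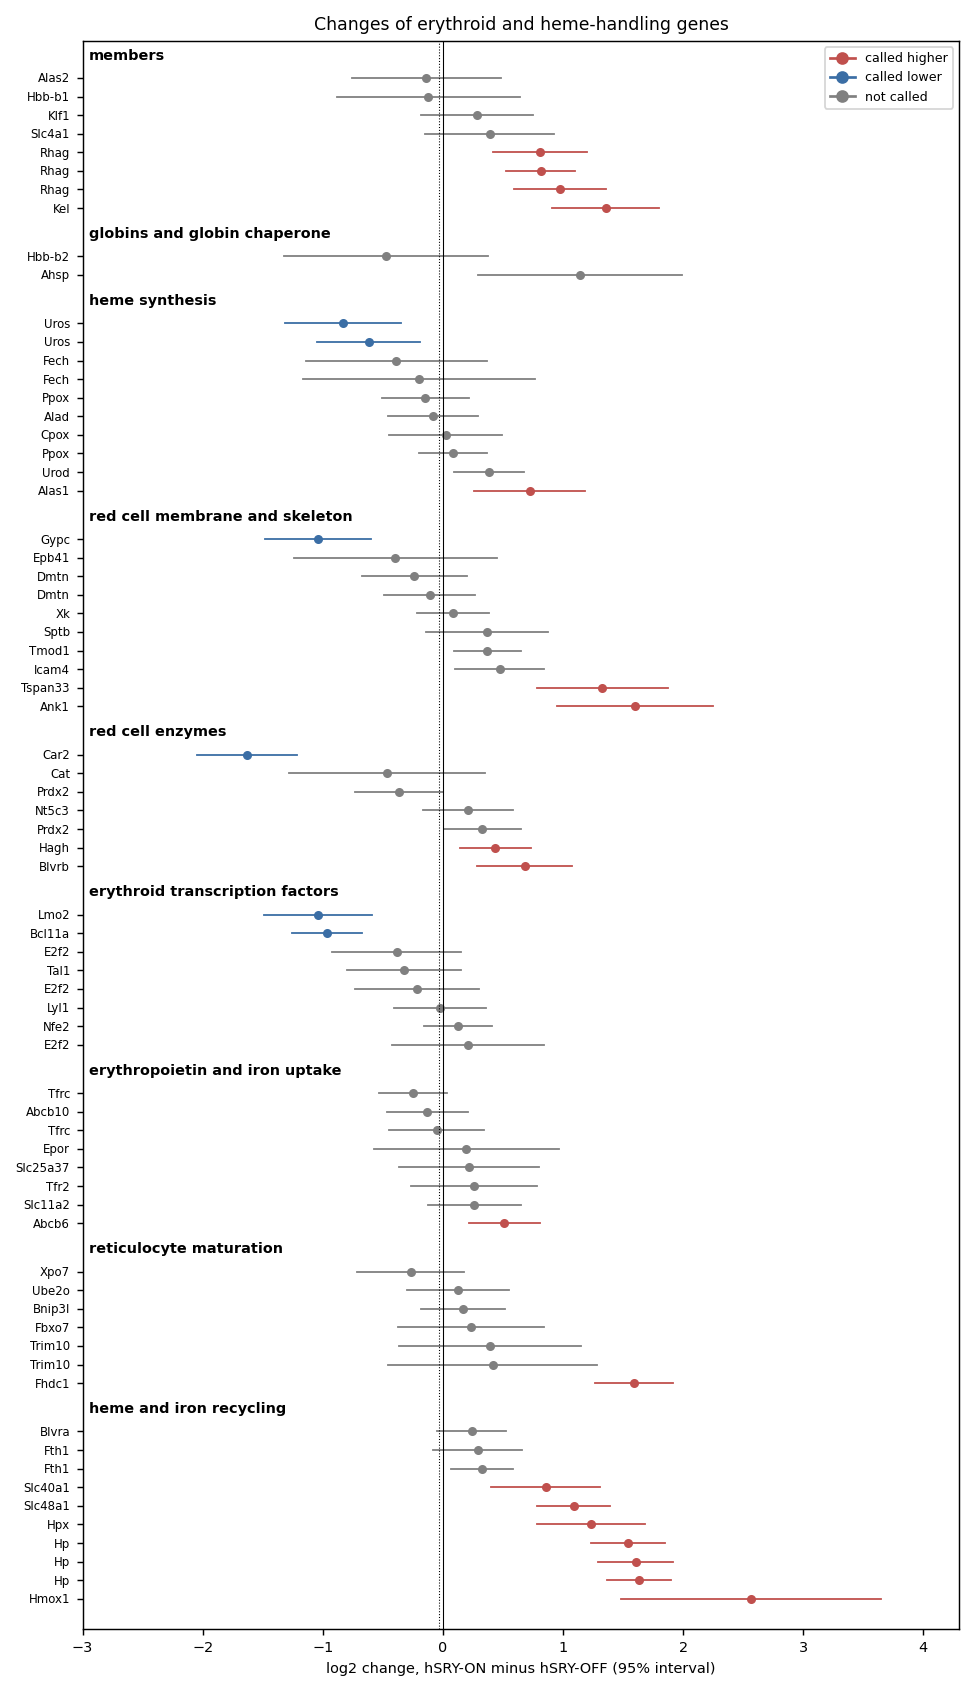
Log2 change (hSRY-ON minus hSRY-OFF, horizontal axis) of tested probes with the 95% interval from limma, for the erythroid members (Hba-a1 left out) and for genes listed by role. Red and blue mark probes called higher and lower, grey those not called, and the dotted line is the median of all tested probes. Intervals of the globins, Alas2 and Slc4a1 cross 0, while 7 of the 10 heme and iron recycling probes are called higher.

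Genes that clear hemoglobin, heme and iron were higher in hSRY-ON for 5 of the 7 genes tested. Of 10 tested probes of the heme and iron recycling list 7 rose and 0 fell (70.0%, against 13.6% of all tested probes called higher), with a median change of 1.16. Hmox1, which opens the heme ring and frees its iron, had levels of 7.32, 7.46 and 7.64 in hSRY-OFF and 11.20, 9.65 and 9.27 in hSRY-ON. The hSRY-ON arrays were all higher and more spread, with hSRY-ON 1 the highest, and the change was 2.57 (SE 0.46, adjusted p = 0.00889) or 1.99 without that array.

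Hp, haptoglobin, which binds free hemoglobin in plasma, rose by 1.63, 1.54 and 1.61 on its 3 probes (adjusted p = 0.000598, 0.000918 and 0.000877). On the first, hSRY-OFF stood at 12.84, 12.78 and 12.69 and hSRY-ON at 14.30, 14.47 and 14.44. Hpx, hemopexin, the plasma carrier of free heme, rose on 1 probe by 1.23 (SE 0.19, adjusted p = 0.00576), from 5.95, 5.80 and 6.47 to 7.19, 7.27 and 7.45. The other Hpx probe (ILMN_2830333) was detected on 1 array of each group. Its groups overlapped, and it was not tested. Hp and Hpx are also acute-phase genes.

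Slc48a1, which moves heme out of the lysosome, rose by 1.09 (SE 0.13, adjusted p = 0.00246), from 10.72, 10.55 and 10.82 to 11.81, 11.89 and 11.66. Slc40a1, ferroportin, the cellular iron exporter, rose by 0.85 (SE 0.19, adjusted p = 0.0186), and lost its call without hSRY-OFF 1 or hSRY-OFF 2 (adjusted p up to 0.0727). The biliverdin reductase Blvra (0.24, adjusted p = 0.182) and both probes of the ferritin heavy chain Fth1 (0.29 and 0.33, adjusted p = 0.214 and 0.0633) did not pass. Ftl1 and Hamp were detected on no array. The summed level of the list was 59822 to 62600 in hSRY-OFF and 104140 to 109380 in hSRY-ON.

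**Figure D5:**
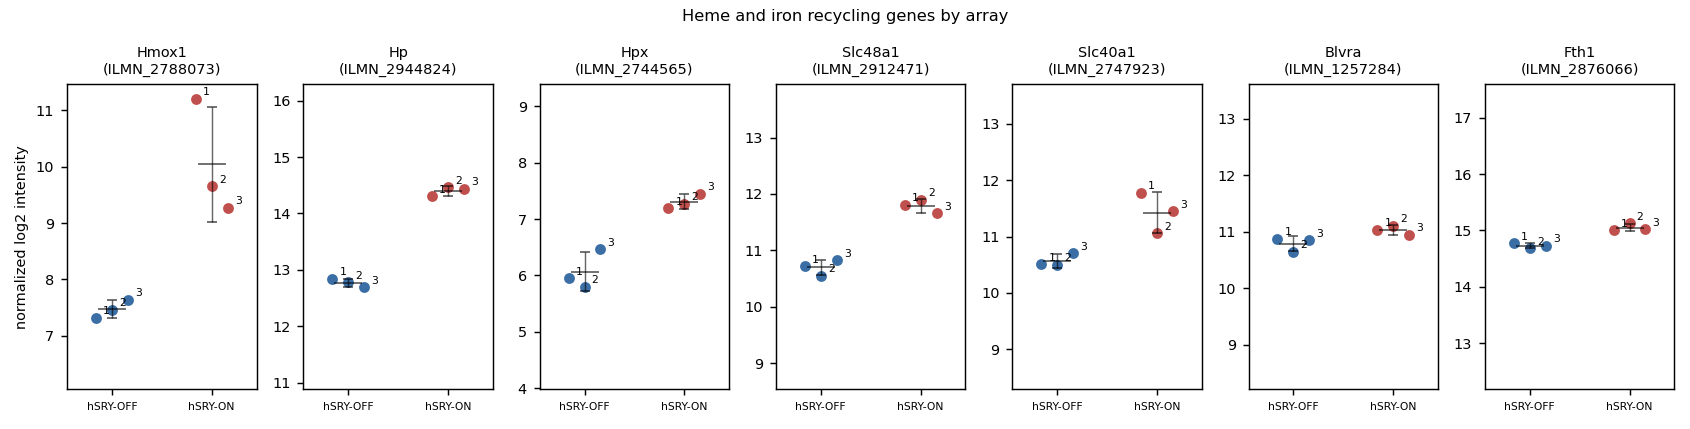
Normalized log2 intensity of 1 probe for each of 7 heme and iron recycling genes on the 3 hSRY-OFF (blue) and 3 hSRY-ON (red) arrays, with array numbers, and with bars for the mean and SD of 3 arrays. Hmox1, Hp, Hpx, Slc48a1 and Slc40a1 are apart between the groups, and hSRY-ON 1 is the highest array for Hmox1 and Slc40a1.

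Markers of other cells that blood and lung bring moved as follows, and their part in the values above was not tested. Of 8 tested neutrophil probes 4 rose and 0 fell (50%, against 13.6% of all tested probes called higher, median 1.49), and the summed level went from 8161 to 8592 in hSRY-OFF to 16128 to 48504 in hSRY-ON, highest on hSRY-ON 3. The granule gene Ltf stood at 8.39, 8.10 and 8.49 against 9.73, 10.57 and 11.78 (adjusted p = 0.0121). Lcn2, another granule gene that epithelium also makes, rose by 1.5 (adjusted p = 0.00952), and S100a8 and S100a9 by 1.48 and 1.81 (adjusted p = 0.0271 and 0.0408, up to 0.0856 and 0.119 with one array left out). Not every granule gene was higher on all hSRY-ON arrays. Ngp gave 7.17, 7.20 and 7.61 in hSRY-OFF and 6.19, 8.34 and 10.56 in hSRY-ON (adjusted p = 0.450). Camp gave 7.10, 7.13 and 7.80 against 6.70, 8.12 and 10.25 (adjusted p = 0.377). For both, hSRY-ON 1 lay below every hSRY-OFF array. Cxcr2 and Elane were detected on no array.

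Of 9 tested lymphocyte probes 5 fell and 1 rose (55.6% and 11.1%, against 13.3% and 13.6% of all tested probes, median -1.15), with a summed level of 2143 to 2664 in hSRY-OFF and 938 to 1976 in hSRY-ON. The T cell receptor chain Cd3e had 7.93, 8.02 and 7.90 against 5.64, 5.94 and 7.04 (adjusted p = 0.0112). Cd3g, Lck and Nkg7 fell by 1.79, 1.25 and 1.47 (adjusted p = 0.0373, 0.0334 and 0.0436). Klrb1c, which entered the test through hSRY-ON (detected on 1 hSRY-OFF array against 3 hSRY-ON arrays), rose by 0.51 (adjusted p = 0.0469). With no detection filter Klrb1c lost its call, and so did Cd3g, Lck and Nkg7, while Cd3e kept it. Of the calls named here only that of Cd3e held without each array in turn, and the others reached adjusted p of 0.106 to 0.158. Cd4, Cd8a and Ms4a1 were detected on no array.

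Platelet markers, which travel in the same blood as red cells, gave 0 rises and 2 falls in 11 tested probes (18.2%, against 26.9% of all tested probes, median 0.10), both of the falls on Ppbp (0.59 and 0.71, adjusted p = 0.0443 and 0.0178, up to 0.149 and 0.0681 with one array left out). Their summed level overlapped, at 1709 to 2024 in hSRY-OFF and 1572 to 2140 in hSRY-ON, and Itgb3 was detected on no array. The change was above 0 for 8 of the 11 tested platelet probes and below it for 3. Pf4 (0.70, adjusted p = 0.230) and Gp1bb (0.49, adjusted p = 0.112) were among those above 0, and neither was called. Of 7 endothelial probes 2 fell, Tie1 by 0.82 (adjusted p = 0.00419) and Cdh5 by 0.48 (adjusted p = 0.0294, up to 0.118 with one array left out), and 0 rose (28.6% called lower, against 13.3% of all tested probes, median -0.40, summed level 28046 to 29596 against 21610 to 26352, Kdr detected on no array). Of 9 lung epithelial probes 3 rose and 0 fell (33.3%, against 13.6% of all tested probes called higher, median 0.23, summed level 128470 to 133910 against 141740 to 151570). These were both Sftpb probes (0.67 and 0.52, adjusted p = 0.00798 and 0.0248) and Sftpd (0.39, adjusted p = 0.0412), and all but the first lost the call when one of several arrays was left out (adjusted p up to 0.101 and 0.166). The epithelial markers did not all move together, with 7 changes above 0 and 2 below. Sftpc was lower on every hSRY-ON array but not called (-0.25, adjusted p = 0.150). Scgb1a1 (0.006) and the Ager probes (0.11 and -0.03) changed little.

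Liver markers were read because the newborn liver makes red cells and plasma proteins such as haptoglobin. Alb, Ttr and Fgb, its defining genes here, were detected on no array. Ahsg and Apoa1, its only tested probes, were detected on no hSRY-OFF array and every hSRY-ON array, and were at least 3.97-fold and 2.14-fold higher in hSRY-ON (adjusted p = 0.00575 and 0.0236, the latter up to 0.0817 without any one hSRY-OFF array). Both entered the test through hSRY-ON, which favours probes that are higher there. The other Ahsg probe (ILMN_2993745) was detected on no hSRY-OFF array and on 1 hSRY-ON array. Its groups overlapped, and it was not tested.

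The erythroid values were also fitted with the level of Hbb-b1, Hbb-b2 and Alas2 on each array as a covariate beside the group, a choice made after the values were seen. That level, centred on the 6 arrays, was 0.48, -0.15 and 0.04 in hSRY-OFF and 0.53, -0.42 and -0.48 in hSRY-ON. At equal covariate level, 24.5% of all tested probes were called. Kel changed by 1.47 (SE 0.15, adjusted p = 0.00383) and the 3 Rhag probes by 0.80, 1.0 and 0.80 (adjusted p = 0.0276, 0.0133 and 0.0116). Ahsp (1.32, SE 0.34, adjusted p = 0.0370) passed the threshold in this fit and not without the covariate. So did Urod (0.44, SE 0.12, adjusted p = 0.0423) and 1 of the 2 tested probes of Trim10, a ring finger protein of late erythroid cells (0.72, SE 0.13, adjusted p = 0.0135). Alas1 (0.71, adjusted p = 0.0596) and 1 of the 2 Uros probes (-0.53, adjusted p = 0.0592) lay above the threshold in this fit only. Slc4a1 stayed above it (0.54, SE 0.16, adjusted p = 0.0558), as did Klf1 (0.22, adjusted p = 0.464).

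The probes whose profile over the 6 arrays was most like the mean of the tested members (Hba-a1 left out) were those of Ifit2, Gnl2, Polr2f, Nqo1, Urod, Ctsf, Kcnh3 and Camkk1. Their Pearson correlation with that mean was 0.983 to 0.994, and 2.90% of the 13832 probes ranked had one above 0.9. Urod (r = 0.990), which acts in the middle of heme synthesis, is the one of these on an erythroid list, and its change of 0.38 had an adjusted p of 0.0574. With the group means removed, the most alike were Abca3, Kdelc1, Tmem55b, Fyn, Pcmt1, Parp2, 2310003L22Rik and Dapk3 (0.987 to 0.998, with 1.32% above 0.9), none of them on an erythroid list. The 6 points share arrays and normalization, and these correlations are a description.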

How the data were processed

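Total RNA of 6 lungs was labelled with biotin and hybridised by the authors to MouseRef-8 v2.0 arrays. The authors deposited, for each probe and array, an intensity on a linear scale that was neither background-corrected nor normalized between arrays, and a detection p-value against negative control probes. The software that summarised the beads is not given in the sources used here. The submitters' processing notes name limma, and the methods name the count-based package TCC. Because the values are intensities, limma 3.58.1 in R 4.3.3 was used here. Detection p-values gave the background of each array (limma's nec), 16 was added as an offset, and quantile normalization and log2 followed. Probes with detection p under 0.05 on at least 3 arrays were tested (13841 of 25697, 53.9%), with Benjamini-Hochberg adjustment over all of them and a threshold of 0.05. The number of arrays limits the precision. Groups came from the sample labels, which do not say how replicates were raised. If they share litters or cages, p-values measure only the spread between these samples. The pipeline was tested on simulated data, with changes planted in bright probes and the spread of the hSRY-OFF arrays. It recovered 48% of planted log2 changes of 1 and 96% of those of 2, so that changes of 1 were often missed. Of its calls, 4.64% were on probes without a planted change. The members and gene lists were chosen with earlier results of these data known. The text gives every member probe and, of each other list, each called probe or the 2 smallest p-values, plus the 8 probes most like the members. Older symbols were matched through RefSeq synonyms. Other normalizations, background settings, filters, variance models, a replicate block and leaving out each array were tried. A few genes of the lists enter the counts and summed levels but are not reported here by name or drawn.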

Additional observations from a re-analysis of the deposited data

How the results depend on the processing

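Of 13841 probes, 3729 were called, and 1326 at an adjusted p under 0.01. Leaving out one array gave 1675 to 4443, with 1675, 1758, 2239 and 2464 without hSRY-OFF 1, 2, 3 and hSRY-ON 2. The count of member probes called higher, 4, was 2 without background correction and with one scaling factor per array, 2 with a detection p under 0.01, 0 where detection on all arrays was asked for (which leaves out Rhag and Kel), and 3 to 4 with one array left out. Member probes called lower stayed at 0 in every alternative. Other erythroid probes called higher, 7, fell to 3 at an adjusted p under 0.01 and to 3 to 6 with one array left out (3 without each hSRY-OFF array), and those called lower, 6, ranged from 4 to 9. Sign turned for Alas2 under one scaling factor per array (0.057) and under that with no background correction (0.00207). With one array left out, Alas2 ranged from -0.31 to 0.075 and was positive without hSRY-OFF 1 (0.074) or hSRY-ON 3, and Hbb-b1 ranged from -0.50 to 0.099 and was positive without hSRY-OFF 1 (0.043), hSRY-ON 2 or hSRY-ON 3 (0.023). None of these values was called, and the cause was not tested. The changes of Rhag and Kel, at 0.81 to 0.98 and 1.35, were 0.23 to 0.28 and 0.42 without background correction and 0.47 to 0.59 and 0.84 with an offset of 50.

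The labels state no pairing of the arrays by replicate number, and with so few arrays the correlations below cannot settle whether there was one. The correlation of deviations from the group means between same-numbered arrays was -0.107, 0.0958 and -0.0927, and not every array correlated best with its own number. With the replicate number as a block, 2657 probes were called, 4 member probes were higher and 0 lower, and 6 other erythroid probes were higher and 5 lower.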
